A study of Mus musculus with 32 samples.

Results

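Putting the short form of PRDM16 back into Prdm16-knockout MLL-AF9 leukaemia cells was examined in 6 RNA-seq libraries of the 32 in the series, chosen by their labels alone. The 3 KO+s libraries came from leukaemia cells that lacked Prdm16 and overexpressed s-PRDM16, the short form. The 3 KO+EV libraries came from the same kind of knockout cell carrying an empty vector (EV). Both groups carry the MLL-AF9 oncogene and the Prdm16 knockout, so they differ by the insert, per the labels. Leukaemia libraries of KO+f (knockout cells with f-PRDM16, the full-length form, n = 3) and WT+EV (cells with intact Prdm16 and empty vector, n = 3) were fitted alongside. All cells were sorted straight from moribund mice, and the RNA was read by poly-A selected sequencing. The add-back is an overexpression, and the labels give no age or strain and do not say whether the 3 libraries of a group come from separate transductions or animals. The p-values therefore measure the spread between these samples.

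MLL-AF9 is a fusion of the histone methyltransferase MLL with AF9, and it keeps myeloid progenitors dividing by holding on HoxA-type genes. PRDM16 is a zinc-finger transcriptional regulator needed by haematopoietic stem cells (HSCs) and known for directing brown fat identity. Its full-length form begins with a PR domain related to histone methyltransferase domains, which the short form lacks.

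Prdm16 itself was read first. Its normalised counts (CPM, counts scaled to a common library total) were 312, 241 and 192 CPM in KO+s, against 0, 0.0915 and 0.0521 CPM in KO+EV. The KO+EV libraries held 3 Prdm16 counts between them and the KO+s libraries 15293, a ratio of 5088 (exact 95% counting interval 1741 to 24673, which covers counting error only). No KO+s library came near a KO+EV library. Gene counts cannot tell which form of the transcript was read. Genes of leukaemia identity were read as well. Over the 6 libraries Hoxa9 lay between 159 and 249 CPM, Meis1 between 62.9 and 194 and Myb between 1757 and 2826. Kit lay between 133 and 381 CPM and the leukocyte gene Ptprc between 576 and 773. Others in the same list were less even: Cd34 ran from 0.625 CPM in KO_EV 3 to 122 in KO_s 2. Mpo ran from 2055 CPM in KO_s 3 to 33196 in KO_EV 3. In bulk samples fewer cells of a type and less RNA per cell cannot be told apart.

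Depth was 19.7 to 23.8 M counts in KO+s and 18.9 to 21.0 M in KO+EV. One library stood apart before any comparison: KO_EV 3 had rank correlations of 0.962 and 0.963 with the other KO+EV libraries, which correlated at 0.993 with each other, whereas KO+s pairs lay between 0.986 and 0.991. Mpo, the myeloperoxidase of primary granules, showed it best, at 5069.5, 9230.1 and 2055 CPM in KO+s, against 3889, 3269.8 and 33196 CPM in KO+EV. The plot of principal components sets KO_EV 3 away from KO_EV 1 and 2 on the second component. Counts without it are given where they matter.

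**Figure D1:**
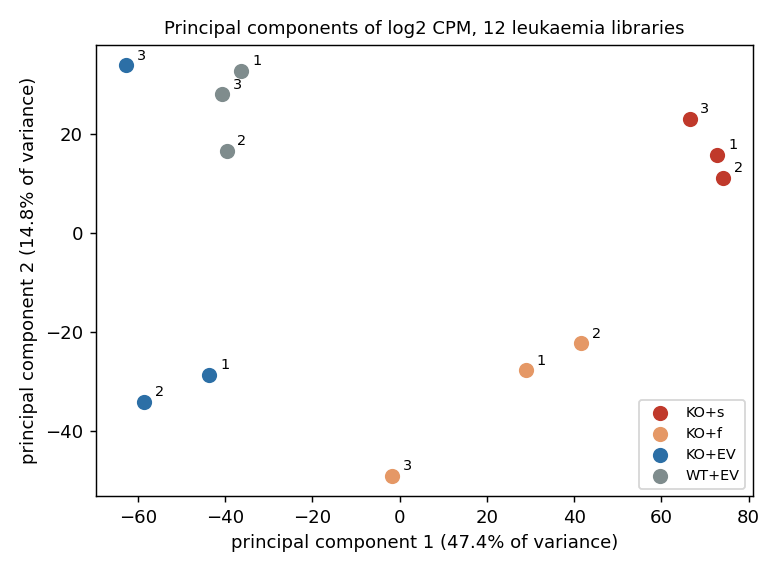
Principal components of log2 CPM of the 12958 tested genes in the 12 leukaemia libraries; axes give component scores with the percent of variance, colours give the group and digits the replicate. The KO+s libraries lie between 66.4 and 74.1 on component 1, KO+f between -1.86 and 41.7, KO+EV between -62.8 and -43.7 and WT+EV between -40.8 and -36.3.

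RNA levels differed widely between KO+s and KO+EV. Of 12958 genes tested with edgeR's quasi-likelihood test (Benjamini-Hochberg adjusted p under 0.05), 4200 passed, which is 32.4%. Of these, 2054 were higher in KO+s (15.9% of genes tested) and 2146 lower (16.6%). Counts of calls in gene lists against KO+EV are to be read beside these shares. A further reading by size gave 1154 genes at least 2-fold higher and 893 at least 2-fold lower among those passing. Scaled by total counts alone, the split was 1694 higher and 2710 lower, with the median log2 change of all genes at -0.10, beside -0.01 with the scaling used here. Without KO_EV 3, 3821 of 13165 genes passed (29%), and without KO_s 1 the number was 2732. In the gene lists that had 0 calls one way, at most 1 member passed in that direction at an unadjusted p under 0.05, and DESeq2 called 0 members, apart from the histones, with 1 gene lower in DESeq2, and the dendritic cell markers, with 2 lower at an unadjusted p under 0.05 and 1 lower in DESeq2.

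The largest rises came from genes nearly silent in the knockout cells. The value after ± is a standard error worked back from the log2 change and the test's F statistic, not the spread between libraries. Pcdh11x, a protocadherin adhesion gene, had 30.1, 22.4 and 25.2 CPM in KO+s, against 0, 0.0915 and 0 CPM in KO+EV (log2 change 9.38 ± 0.66, adjusted p = 1.63e-05). Dennd5b, an exchange factor for Rab GTPases, had 68.8, 78.7 and 57.1 CPM in KO+s, against 0.203, 0.229 and 0.104 CPM in KO+EV (log2 change 8.51 ± 0.33, adjusted p = 5.81e-08). Tmem178 (log2 change 9.08 ± 1.22), Strc (8.34 ± 0.83), the germline helicase gene Tdrd9 (7.69 ± 1.26) and Fam123a (7.46 ± 0.70) rose in the same range. Dsp, which encodes the desmosome linker desmoplakin, had 628, 535 and 577 CPM in KO+s, against 15.1, 2.65 and 0.469 CPM in KO+EV (log2 change 6.58 ± 0.93, adjusted p = 7.92e-04). Myl10 (6.46 ± 0.59), the T-cell costimulator Cd28 (6.19 ± 0.43), the C-type lectin Clec4b2 (6.18 ± 0.80) and H2-Q6 (5.88 ± 0.72) were also among the leaders, and every one of these genes passed with any 1 of the 6 libraries left out. H2-Q6 has close copies in the H2-Q cluster, so its count is uncertain. Log2 changes of genes with a few counts in 1 group depend on the small count that the fit adds.

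Other genes fell to almost nothing. Stra6, the membrane receptor that takes up vitamin A from its carrier protein, had 0.0888, 0.0532 and 0 CPM in KO+s, against 29.2, 83.9 and 128 CPM in KO+EV (log2 change -10.50 ± 1.25, adjusted p = 3.18e-04). Over the 3 libraries of each group that is 3 counts in KO+s and 4863 in KO+EV. Col6a3, a collagen VI chain, had 0.267, 0.106 and 0.102 CPM in KO+s, against 141, 201 and 143 CPM in KO+EV (log2 change -9.90 ± 1.10, adjusted p = 2.31e-04). Ppp1r14c, an inhibitor of protein phosphatase 1, had 0.0444, 0 and 0.307 CPM in KO+s, against 73.96, 122 and 50.3 CPM in KO+EV (log2 change -9.40 ± 1.19, adjusted p = 4.53e-04). C1qtnf6 (-9.44 ± 1.29), the glycosyltransferase gene Gcnt4 (-6.99 ± 1.01), Ranbp17 (-6.99 ± 0.88), the claudin Cldn23 (-6.99 ± 0.99) and Gprasp2 (-6.93 ± 0.74) fell likewise, with no overlap between groups. In 4 further leaders the KO+EV libraries spread widely. Clec3a had 0, 0 and 0.0512 CPM in KO+s, against 1.98, 1.65 and 116 CPM in KO+EV, and its log2 change of -10.79 was -6.34 without KO_EV 3. Amph (0, 0 and 0.0512 CPM in KO+s, against 18.8, 35.6 and 0.573 CPM in KO+EV) and the metalloprotease Mmp12 (0.0888, 0.266 and 1.74 CPM in KO+s, against 120.2, 323 and 1.77 CPM in KO+EV) were low in KO_EV 3. Dlk1, a Notch-family ligand, had 0.133, 0 and 0 CPM in KO+s, against 8.34, 100.3 and 0.260 CPM in KO+EV (log2 change -9.37 ± 2.72, adjusted p = 0.0232). The Dlk1 call was lost without KO_EV 2, KO_s 1, KO_s 2 or KO_s 3, with adjusted p up to 0.0877. The Mmp12 call was lost without KO_s 1 or KO_s 2, with adjusted p up to 0.0718.

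**Figure D2:**
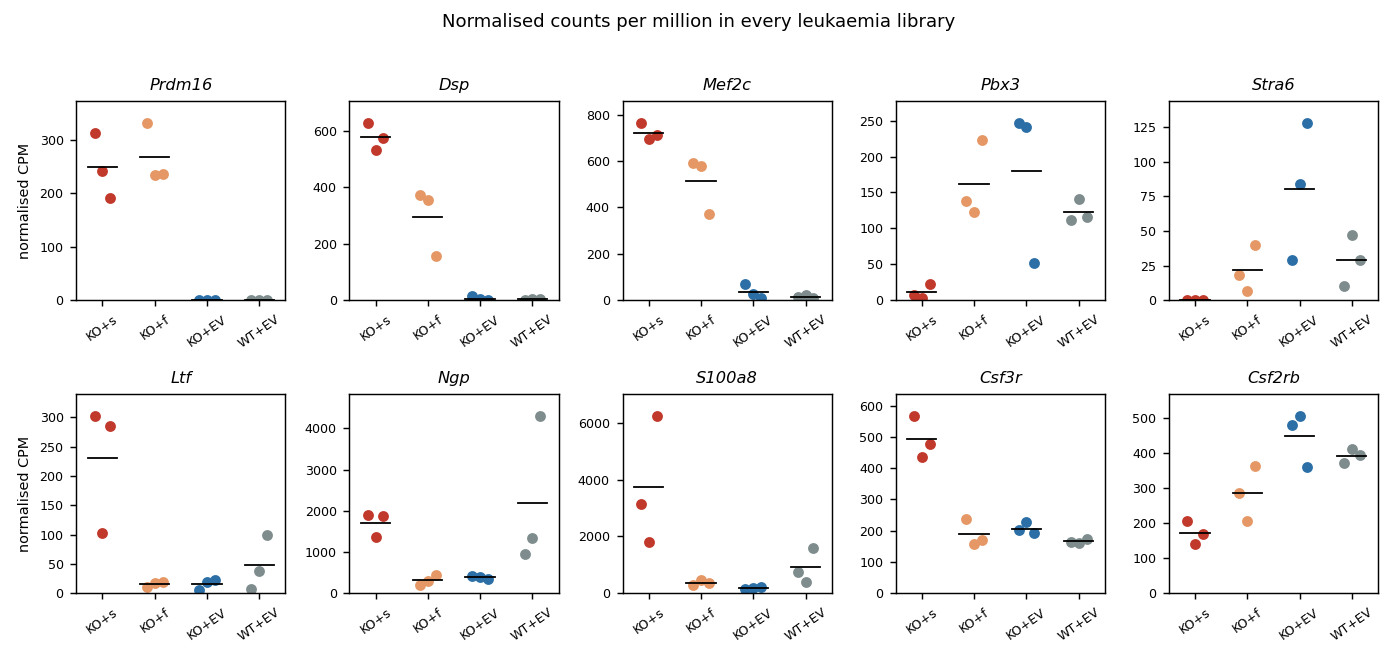
Normalised CPM of 10 genes in every leukaemia library, on linear axes from 0; points are libraries in the order of their replicate numbers and bars are group means. Dsp and Mef2c are far higher in KO+s than in KO+EV, Pbx3 and Stra6 show the reverse, and the granule gene Ltf sits at 103 to 302 CPM in KO+s and at 10.5 to 19.7 in KO+f.

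Among genes of the MLL fusion programme, Pbx3 fell and Pbx2 rose. PBX proteins are homeodomain cofactors that bind DNA together with HOX and MEIS factors. Pbx3 had 7.64, 3.67 and 22.4 CPM in KO+s, against 247, 241 and 52.1 CPM in KO+EV (log2 change -4.00 ± 0.70, adjusted p = 0.00204), and its highest KO+s library stayed below its lowest KO+EV library. Pbx2 rose by a smaller step (log2 change 0.88 ± 0.13, adjusted p = 6.94e-04). Hoxa9 and Meis1 did not pass. Hoxa9 had 191, 164 and 202 CPM in KO+s, against 238, 249 and 159 CPM in KO+EV (log2 change -0.21 ± 0.17, adjusted p = 0.360) and Meis1 194, 162 and 171 CPM in KO+s, against 150.2, 150.2 and 62.9 CPM in KO+EV (log2 change 0.54 ± 0.26, adjusted p = 0.133). Over the list of HOXA, MEIS and PBX genes 3 of 16 rose and 2 fell, where 15.9% of all genes tested rose and 16.6% fell, with a median log2 change of -0.03 beside a median of -0.01 over all genes tested. Other calls in the list were Hoxa2 (log2 change 1.28 ± 0.38, adjusted p = 0.0250) and Meis3 (log2 change -2.69 ± 0.70, adjusted p = 0.0125). The Hoxa2 call was lost without KO_s 1, with adjusted p at 0.0938. Without KO_EV 3 the number of falls was 5.

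Single cofactors and targets of MLL fusions changed. Mef2c, a MADS-box factor active in MLL-rearranged leukaemia, had 763, 693 and 711 CPM in KO+s, against 67.96, 26.6 and 11.4 CPM in KO+EV (log2 change 4.35 ± 0.58, adjusted p = 5.84e-04), and the groups lay far apart. The anti-apoptotic gene Bcl2 had 53.2, 120.3 and 50.97 CPM in KO+s, against 17.96, 13.96 and 7.03 CPM in KO+EV (log2 change 2.53 ± 0.50, adjusted p = 0.00392). Eya1, a transcriptional coactivator and phosphatase, had 0.666, 0.585 and 8.25 CPM in KO+s, against 102, 149.9 and 176 CPM in KO+EV (log2 change -5.50 ± 1.17, adjusted p = 0.00525). Dot1l, the H3K79 methyltransferase, fell slightly (log2 change -0.43 ± 0.12, adjusted p = 0.0151). The Dot1l call was lost without KO_s 3, with adjusted p at 0.0582. The list gave 3 higher and 4 lower of 19, with 2 lower without KO_s 3, shares near the 15.9% and 16.6% of all genes tested.

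Transcription factors of HSCs rose where they passed. Of 22 tested, 11 rose, with a median log2 change of 0.90. Without KO_EV 2 it was 7, with 1 lower, and without KO_EV 3 it was 9, with 2 lower. Gata2, a zinc-finger factor of stem cells and early progenitors, had 20.4, 32.1 and 19.8 CPM in KO+s, against 5.90, 2.38 and 0.0521 CPM in KO+EV (log2 change 3.11 ± 0.75, adjusted p = 0.00973). Hlf, a leucine-zipper factor marking quiescent HSCs, had 5.95, 4.63 and 6.92 CPM in KO+s, against 1.68, 0.641 and 0.365 CPM in KO+EV (log2 change 2.70 ± 0.56, adjusted p = 0.00406), so the absolute level stayed low. Lmo2, a bridging protein of stem-cell factor complexes, had 1059, 958 and 999 CPM in KO+s, against 348, 296 and 447 CPM in KO+EV (log2 change 1.47 ± 0.29, adjusted p = 0.00320). Hhex (1.37 ± 0.29), Etv6 (0.87 ± 0.20) and Nfix (0.82 ± 0.17) also rose. Among surface and signature genes Vwf had 45.6, 21.8 and 33.9 CPM in KO+s, against 6.26, 9.70 and 0.833 CPM in KO+EV (log2 change 2.59 ± 0.64, adjusted p = 0.0107), and the endothelial protein C receptor gene Procr rose at under 1 CPM (log2 change 2.21 ± 0.55, adjusted p = 0.0105). Cd34 had 25.1, 122 and 44.7 CPM in KO+s, against 12.3, 3.43 and 0.625 CPM in KO+EV, with KO_s 2 high (adjusted p = 0.0308). The Cd34 call was lost without KO_EV 2, KO_EV 3 or KO_s 2, with adjusted p up to 0.100. Ctnnal1, a catenin-like gene, fell (log2 change -1.48 ± 0.31, adjusted p = 0.00430), as did Cd38 (log2 change -3.15 ± 1.10, adjusted p = 0.0480). The Cd38 call was lost without KO_EV 1, KO_EV 2, KO_s 1, KO_s 2 or KO_s 3, with adjusted p up to 0.134. The list gave 4 higher and 2 lower of 13, with 1 lower in each fit that left out a library other than KO_EV 3.

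Among myeloid genes the later granule programme rose. Neutrophil granules are made in waves: primary granules with Mpo and elastase come first, then secondary and tertiary granules with lactoferrin, lipocalin and gelatinase. Of 20 secondary and tertiary granule genes 14 rose and 1 fell, with a median log2 change of 2.55, or 13 and 0 without KO_EV 3 and 11 and 3 without KO_s 3. Chi3l1, a chitinase-like protein, had 79.3, 60.9 and 76.6 CPM in KO+s, against 1.73, 2.38 and 1.15 CPM in KO+EV (log2 change 5.35 ± 0.41, adjusted p = 3.30e-05). Olfm4, a granule protein of a neutrophil subset, had 606, 840.4 and 644 CPM in KO+s, against 12.2, 13.1 and 19.5 CPM in KO+EV (log2 change 5.55 ± 0.75, adjusted p = 6.54e-04). Ltf, which encodes lactoferrin, had 302, 103 and 285 CPM in KO+s, against 6.05, 19.8 and 22.1 CPM in KO+EV (log2 change 3.84 ± 0.84, adjusted p = 0.00616). In each of these the lowest KO+s library exceeded the highest KO+EV library several times over, and KO_s 2 was the lowest for Ltf. Mmp9 (gelatinase B, 3.97 ± 0.49), Itgb2l (3.41 ± 0.40), the lysozyme gene Lyz2 (3.00 ± 0.34) and the granule protein Ngp (2.13 ± 0.49) rose too. Lyz2 has a near copy in Lyz1, so reads may be divided between them. Stfa3, of the stefins that inhibit cysteine proteases in neutrophils, did not join. It had 0.311, 0.106 and 0.307 CPM in KO+s, against 0.305, 0.732 and 1.67 CPM in KO+EV (log2 change -1.85 ± 0.65, adjusted p = 0.0464), and the groups overlapped. The Stfa3 call was lost without KO_EV 2, KO_EV 3, KO_s 1, KO_s 2 or KO_s 3, with adjusted p up to 0.216. Stefin genes are near-identical, and their separate counts are uncertain.

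Primary granule genes held fewer calls. Of 7, Fcnb, the pattern-recognition lectin ficolin-B, had 643, 565 and 708 CPM in KO+s, against 14.2, 11.9 and 57.96 CPM in KO+EV (log2 change 4.51 ± 1.02, adjusted p = 0.00724). KO_EV 3 was the highest of its group, and without it the log2 change was 5.61. The serine protease gene Prss57 had 169, 174 and 203 CPM in KO+s, against 60.9, 41.3 and 78.3 CPM in KO+EV (log2 change 1.60 ± 0.34, adjusted p = 0.00516). Mpo did not pass (log2 change -1.30 ± 0.81, adjusted p = 0.245). Its groups overlapped, and KO_EV 3 lay above every other library. Elane, neutrophil elastase, had 5517, 5238 and 5614 CPM in KO+s, against 3371, 3415 and 13125 CPM in KO+EV (log2 change -0.28 ± 0.43, adjusted p = 0.651). Without KO_EV 3, whose Mpo and Elane were the highest, 4 primary granule genes rose. Ctsg, cathepsin G, was the 1 member that fell (log2 change -0.62 ± 0.22, adjusted p = 0.0472). The Ctsg call was lost without KO_EV 2, KO_EV 3, KO_s 1, KO_s 2 or KO_s 3, with adjusted p up to 0.175.

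The promoters of 2 secondary granule genes and of 4 genes discussed below show the letters that known regulators of each group read. They are RefSeq sequences of build GRCm38.p6 (not the mm9 of the counts), from 250 bases before to 50 after the start, written 5′ to 3′ along the gene. Capitals mark a match to the C/EBP motif TTNNGCAA (either strand) in Ngp (chr9:110419558-110419857, plus strand) and Ltf (chr9:111019042-111019341, plus strand). C/EBP factors are known to drive secondary granule genes.
Ngp: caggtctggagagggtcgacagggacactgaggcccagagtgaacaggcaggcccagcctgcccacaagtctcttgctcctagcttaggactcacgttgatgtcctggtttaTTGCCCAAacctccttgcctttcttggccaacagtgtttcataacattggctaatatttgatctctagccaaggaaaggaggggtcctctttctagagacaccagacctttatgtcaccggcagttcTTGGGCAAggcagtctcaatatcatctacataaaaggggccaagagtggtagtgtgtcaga
Ltf: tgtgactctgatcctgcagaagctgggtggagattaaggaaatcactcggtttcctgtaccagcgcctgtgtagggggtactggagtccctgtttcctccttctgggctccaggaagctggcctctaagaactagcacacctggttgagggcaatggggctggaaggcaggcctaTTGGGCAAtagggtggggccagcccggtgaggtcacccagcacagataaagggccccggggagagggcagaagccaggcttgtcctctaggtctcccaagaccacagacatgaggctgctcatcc
The motif occurred in 7 of 15 promoters of the secondary and tertiary granule list (46.7%) and in 8.33% of the 9200 promoters matched to tested genes, or 10.8% of all 27025. Among other lists it stood in 2 of 6 promoters of primary granule genes (33.3%) and 4 of 16 of lysosomal genes (25%). For S100 genes it was 1 of 8 (12.5%) and for NADPH oxidase genes 0 of 3. A role of C/EBP factors in these changes was not tested. Cebpe, the C/EBP factor of late granulocytes, had 149.8, 108 and 145 CPM in KO+s, against 87.95, 48.7 and 44.4 CPM in KO+EV (log2 change 1.15 ± 0.34, adjusted p = 0.0250). The Cebpe call was lost without KO_EV 2, KO_EV 3, KO_s 1 or KO_s 3, with adjusted p up to 0.0864.

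S100 and oxidase genes rose beside the granule genes. S100a8 and S100a9 encode the subunits of calprotectin, the main calcium-binding protein of neutrophil cytosol. S100a8 had 3134, 1804 and 6235 CPM in KO+s, against 164, 186 and 216 CPM in KO+EV (log2 change 4.30 ± 0.56, adjusted p = 5.55e-04). S100a9 had 3493, 2155 and 5571 CPM in KO+s, against 104, 168 and 129 CPM in KO+EV (log2 change 4.81 ± 0.49, adjusted p = 1.43e-04), with KO_s 3 the highest library in both genes. S100a6 (3.96 ± 0.64) and S100a4 (3.51 ± 0.78) rose with them, and the list gave 4 higher and 0 lower of 9 tested (median 1.19). In the phagocyte NADPH oxidase, which makes superoxide, Cybb, the catalytic membrane subunit, had 1245, 1160.1 and 1339.96 CPM in KO+s, against 120.5, 59.3 and 17.3 CPM in KO+EV (log2 change 4.25 ± 0.67, adjusted p = 0.00125). The cytosolic organiser Ncf1 had 1858, 1499 and 1835 CPM in KO+s, against 452, 302 and 382 CPM in KO+EV (log2 change 2.19 ± 0.31, adjusted p = 6.60e-04), and Ncf4 rose less (0.74 ± 0.17). Cyba, the partner subunit of Cybb in the membrane, had a change of -0.05 ± 0.18 that did not pass (adjusted p = 0.860).

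Single growth factor receptors changed in each direction. Csf3r, the receptor for granulocyte colony-stimulating factor, had 567, 437 and 476 CPM in KO+s, against 201, 228 and 191 CPM in KO+EV (log2 change 1.26 ± 0.16, adjusted p = 3.74e-04). Csf1r, the macrophage colony-stimulating factor receptor, had 136, 141 and 70.2 CPM in KO+s, against 41.6, 26.9 and 29.1 CPM in KO+EV (log2 change 1.83 ± 0.37, adjusted p = 0.00378), and Csf2ra rose (log2 change 1.07 ± 0.24, adjusted p = 0.00664). The common beta chain Csf2rb had 207, 139 and 168 CPM in KO+s, against 479.6, 505 and 358 CPM in KO+EV (log2 change -1.39 ± 0.21, adjusted p = 9.49e-04), and its close copy Csf2rb2 also fell (log2 change -1.25 ± 0.32, adjusted p = 0.0127), though reads shared between the copies make the pair uncertain. The list gave 3 higher and 2 lower of 12, where 15.9% of all genes tested were higher and 16.6% lower. Downstream, Jak2 (log2 change 1.43 ± 0.22, adjusted p = 0.00103), Jak1 (0.74 ± 0.14) and Cish (log2 change 1.91 ± 0.33, adjusted p = 0.00162), an inhibitor induced by STAT5, rose. Of 22 SOCS, PIM, JAK and STAT genes 10 were higher and 1 lower, Stat5a (log2 change -0.39 ± 0.13, adjusted p = 0.0325), a call lost with any 1 library left out (adjusted p up to 0.0934).

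Many inflammatory signalling genes rose, among ligands, receptors and factors. Interleukin-1 and tumour necrosis factor signal through NF-kB, whose inhibitors are themselves NF-kB targets. Among ligands Il1b had 21.6, 13.2 and 23.4 CPM in KO+s, against 2.44, 2.06 and 2.08 CPM in KO+EV (log2 change 3.14 ± 0.58, adjusted p = 0.00249). Tnf had 13.8, 12.1 and 20.3 CPM in KO+s, against 5.29, 3.02 and 5.94 CPM in KO+EV (log2 change 1.70 ± 0.31, adjusted p = 0.00210). No KO+EV library reached the lowest KO+s value for either gene. Ptgs2, the inducible cyclooxygenase, rose (2.83 ± 0.55), and Il33 fell at about 1 CPM or less (log2 change -2.30 ± 0.54, adjusted p = 0.00789). The ligand list gave 7 higher and 2 lower of 16 (median 1.12). The other fall was Tgfb1 (log2 change -0.73 ± 0.18, adjusted p = 0.00841), the member with the most counts, and the summed CPM of the list was 329 to 384 in KO+s and 389 to 419 in KO+EV. Chemokine ligands split, 5 higher and 5 lower of 13. The number higher was 3 without KO_EV 2, KO_EV 3, KO_s 1 or KO_s 3, and the number lower was 1 to 3 with any 1 library left out. Cxcl2, which attracts neutrophils, rose (log2 change 3.59 ± 0.77, adjusted p = 0.00502), as did Ccl6 (log2 change 1.54 ± 0.39, adjusted p = 0.0117). The monocyte attractant Ccl7 fell (log2 change -4.90 ± 0.81, adjusted p = 0.00128), and so did Ccl2 (log2 change -1.89 ± 0.57, adjusted p = 0.0252). The Ccl2 call was lost without KO_EV 2, KO_EV 3, KO_s 1 or KO_s 2, with adjusted p up to 0.0911. Among receptors and inflammasome genes, 10 rose and 2 fell of 19. Nlrp3, the inflammasome sensor, had 34.9, 32.8 and 11.99 CPM in KO+s, against 1.73, 1.01 and 1.30 CPM in KO+EV (log2 change 4.30 ± 0.70, adjusted p = 0.00140). KO_s 3 was the lowest KO+s library for Nlrp3 but still well above KO+EV. The decoy receptor Il1r2 had 25.8, 9.79 and 22.4 CPM in KO+s, against 1.02, 1.83 and 2.34 CPM in KO+EV (log2 change 3.48 ± 0.46, adjusted p = 4.65e-04). Il17ra, the interleukin-17 receptor, had 19.4, 41.3 and 17.2 CPM in KO+s, against 159, 140.4 and 114 CPM in KO+EV (log2 change -2.41 ± 0.40, adjusted p = 0.00158).

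Most NF-kB genes rose. Of 22 tested 16 rose and 0 fell, with a median log2 change of 1.12 (13 to 17 higher with 1 library left out). Nfkb1, which encodes a precursor and the subunit cut from it, had 306, 320.5 and 287 CPM in KO+s, against 172, 163 and 152 CPM in KO+EV (log2 change 0.91 ± 0.12, adjusted p = 5.12e-04). Tnfaip3, the A20 feedback enzyme, had 76.1, 59.1 and 79.7 CPM in KO+s, against 18.97, 12.3 and 24.2 CPM in KO+EV (log2 change 1.96 ± 0.29, adjusted p = 8.19e-04). Zc3h12a, an RNase that degrades inflammatory mRNAs, had 52.6, 33.6 and 35.8 CPM in KO+s, against 14.6, 15.8 and 15.1 CPM in KO+EV (log2 change 1.42 ± 0.22, adjusted p = 9.54e-04). Both feedback genes had larger log2 changes than Nfkb1. Nfkbia, the inhibitor IkB-alpha, had 143, 95.99 and 104 CPM in KO+s, against 43.95, 44.8 and 74.8 CPM in KO+EV (log2 change 1.07 ± 0.23, adjusted p = 0.00453). Nfkb2, the non-canonical precursor, had 46.2, 34.9 and 33.04 CPM in KO+s, against 17.3, 19.9 and 7.60 CPM in KO+EV (log2 change 1.35 ± 0.29, adjusted p = 0.00481). Their promoters (chr12:55492598-55492897, minus strand, and chr19:46304487-46304786, plus strand) carry the NF-kB letters, GGG, any 2 bases, then TTTCC, on 1 strand or the other, in capitals.
Nfkbia: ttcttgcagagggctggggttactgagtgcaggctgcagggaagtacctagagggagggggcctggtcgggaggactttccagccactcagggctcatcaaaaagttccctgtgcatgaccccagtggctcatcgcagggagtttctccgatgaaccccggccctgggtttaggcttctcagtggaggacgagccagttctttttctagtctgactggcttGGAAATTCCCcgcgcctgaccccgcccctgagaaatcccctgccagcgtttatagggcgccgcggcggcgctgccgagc
Nfkb2: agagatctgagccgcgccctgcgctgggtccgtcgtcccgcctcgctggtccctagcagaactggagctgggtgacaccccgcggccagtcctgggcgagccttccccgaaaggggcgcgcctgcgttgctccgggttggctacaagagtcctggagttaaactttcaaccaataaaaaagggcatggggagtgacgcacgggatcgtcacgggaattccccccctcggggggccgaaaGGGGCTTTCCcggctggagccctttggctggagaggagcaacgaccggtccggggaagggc
These letters stood in 4 of 18 promoters of the list (22.2%) and in 1.73% of promoters of tested genes (1.62% of all promoters).

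Toll-like receptor genes did not follow as a block. The lipopolysaccharide co-receptor Cd14 had 107, 70.8 and 133 CPM in KO+s, against 34.7, 33.9 and 15.3 CPM in KO+EV (log2 change 1.89 ± 0.46, adjusted p = 0.0105). Tlr2 had 57.4, 43.4 and 47.9 CPM in KO+s, against 24.8, 27.00 and 9.63 CPM in KO+EV (log2 change 1.28 ± 0.32, adjusted p = 0.0101). Cd180, a relative of Tlr4, had 70.01, 64.4 and 73.97 CPM in KO+s, against 17.9, 7.78 and 3.80 CPM in KO+EV (log2 change 2.82 ± 0.63, adjusted p = 0.00664). KO_EV 3 was the lowest KO+EV library for all 3 genes, and the groups did not overlap. Irak3, a brake on the pathway, also rose (log2 change 1.44 ± 0.20, adjusted p = 5.91e-04). Yet Tlr1 and Tlr6, each of which pairs with Tlr2 to recognise bacterial lipopeptides, fell: Tlr1 had 11.5, 10.7 and 9.83 CPM in KO+s, against 36.6, 27.8 and 43.3 CPM in KO+EV (log2 change -1.75 ± 0.23, adjusted p = 4.02e-04). Tlr6 had 2.93, 3.30 and 1.59 CPM in KO+s, against 15.9, 11.99 and 17.1 CPM in KO+EV (log2 change -2.52 ± 0.37, adjusted p = 7.69e-04). Tlr1 and Tlr6 are close paralogs. The adaptor Ticam2 fell as well (log2 change -2.47 ± 0.43, adjusted p = 0.00170). The list gave 8 higher and 3 lower of 24, with 5 higher without KO_s 1, where 15.9% of all genes tested were higher and 16.6% lower. Among chemoattractant receptors 6 of 16 rose and 1 fell: Cx3cr1, the fractalkine receptor, had 51.4, 48.5 and 44.3 CPM in KO+s, against 1.83, 2.01 and 1.15 CPM in KO+EV (log2 change 4.84 ± 0.53, adjusted p = 1.93e-04), and its ligand Cx3cl1, at under 1 CPM in each KO+EV library, rose (log2 change 3.68 ± 0.40, adjusted p = 1.43e-04). Fpr2, a formyl peptide receptor of neutrophils, had 52.4, 28.8 and 82.7 CPM in KO+s, against 2.09, 3.11 and 1.56 CPM in KO+EV (log2 change 4.59 ± 0.63, adjusted p = 6.89e-04).

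**Figure D3:**
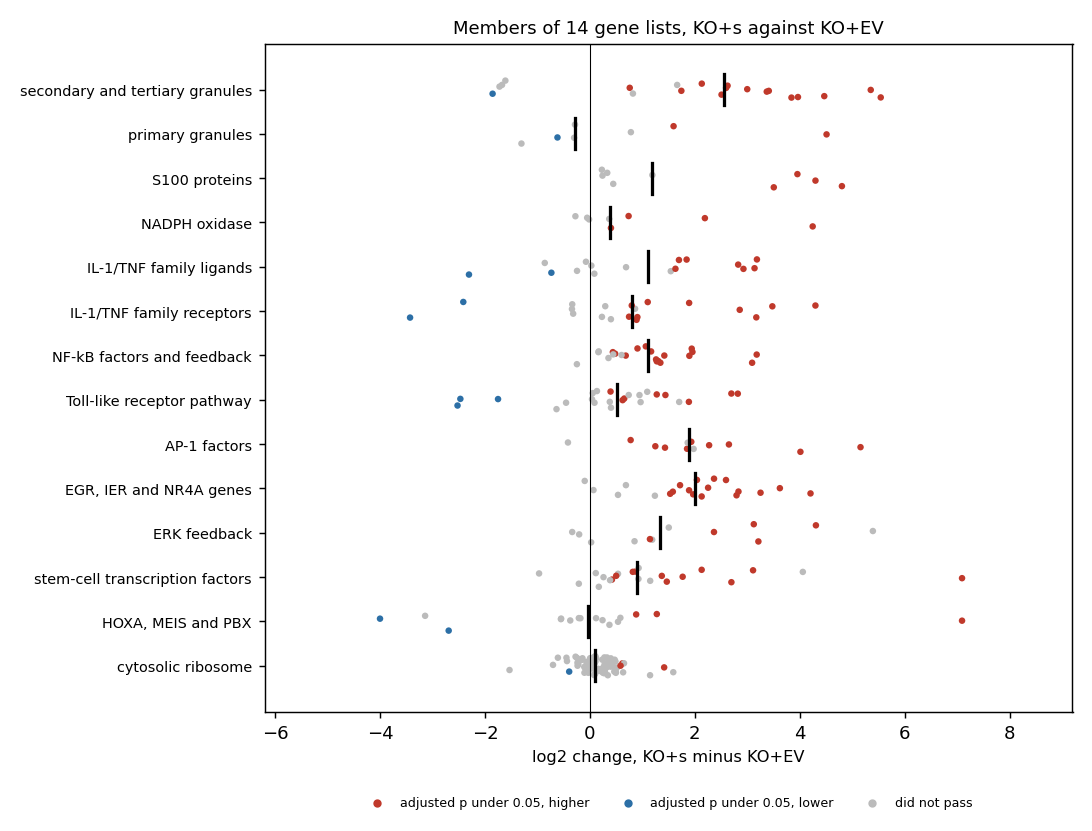
Log2 change of each tested member of 14 gene lists, KO+s minus KO+EV, with black bars at list medians; red and blue points passed the edgeR threshold and grey points did not. Medians stand at 2.55 for secondary and tertiary granules, 2.01 for EGR, IER and NR4A genes and 1.12 for NF-kB genes, and at 0.11 for the cytosolic ribosome.

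Early response genes, the first transcripts made after a signal, were higher in KO+s. Of 12 AP-1 genes 9 rose and 0 fell (median 1.90), and of 20 EGR, NR4A, IER and KLF genes 15 rose and 0 fell (median 2.01). Atf3, a stress-induced partner of AP-1, had 44.9, 32.01 and 40.7 CPM in KO+s, against 2.75, 1.88 and 2.66 CPM in KO+EV (log2 change 4.01 ± 0.68, adjusted p = 0.00184). Ier5 had 98.4, 59.1 and 139 CPM in KO+s, against 15.97, 14.4 and 18.7 CPM in KO+EV (log2 change 2.60 ± 0.33, adjusted p = 3.70e-04). Klf4, a factor that promotes monocyte fate, had 34.8, 39.9 and 38.3 CPM in KO+s, against 2.29, 0.961 and 8.64 CPM in KO+EV (log2 change 3.25 ± 0.72, adjusted p = 0.00668). The groups did not overlap in any of these, and KO_EV 3 was the highest KO+EV library for Klf4, whose log2 change was 4.53 without it. Fos and Jun, the founding AP-1 subunits, did not pass. Fos had 179.6, 559.6 and 801 CPM in KO+s, against 90.4, 17.5 and 283 CPM in KO+EV (adjusted p = 0.140), and its groups overlapped. Jun had 525, 431 and 1024 CPM in KO+s, against 136, 18.4 and 389 CPM in KO+EV (adjusted p = 0.137), with KO_EV 3 high and KO_EV 2 low but no overlap between groups. Of 12 ERK feedback genes, the phosphatases that end its signal and the Sprouty inhibitors, 5 rose and 0 fell. Dusp6 had 60.9, 65.9 and 57.5 CPM in KO+s, against 8.04, 6.41 and 5.42 CPM in KO+EV (log2 change 3.21 ± 0.34, adjusted p = 1.45e-04). Dusp5 had 31.6, 21.5 and 25.3 CPM in KO+s, against 2.44, 1.28 and 0.208 CPM in KO+EV (log2 change 4.31 ± 0.61, adjusted p = 7.57e-04).

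Adhesion and macrophage genes divided. Itgam, the alpha chain of the Mac-1 integrin, had 1424, 1136 and 1339.5 CPM in KO+s, against 607, 589.5 and 539 CPM in KO+EV (log2 change 1.17 ± 0.15, adjusted p = 3.74e-04). Its partner Itgb2 had 391, 342 and 359 CPM in KO+s, against 549, 501 and 521 CPM in KO+EV (log2 change -0.52 ± 0.15, adjusted p = 0.0216). The Itgb2 call was lost without KO_EV 1, KO_s 2 or KO_s 3, with adjusted p up to 0.0910. Emr1, the F4/80 antigen of macrophages, had 285, 250.1 and 349.8 CPM in KO+s, against 84.2, 94.9 and 39.9 CPM in KO+EV (log2 change 2.01 ± 0.33, adjusted p = 0.00140). Lgals3, galectin-3, had 92.1, 66.4 and 104 CPM in KO+s, against 11.95, 9.84 and 10.7 CPM in KO+EV (log2 change 3.01 ± 0.44, adjusted p = 8.92e-04). All KO+s libraries lay above all KO+EV libraries for Itgam, Emr1 and Lgals3. In contrast Fcgr3, a low-affinity Fc receptor, had 83.3, 115 and 82.9 CPM in KO+s, against 292, 233 and 261 CPM in KO+EV (log2 change -1.48 ± 0.18, adjusted p = 2.94e-04). The iron exporter gene Slc40a1 had 36.5, 17.7 and 30.7 CPM in KO+s, against 101, 92.9 and 85.1 CPM in KO+EV (log2 change -1.71 ± 0.28, adjusted p = 0.00128). Of 24 monocyte and macrophage genes 7 were higher and 6 lower, where 15.9% of all genes tested were higher and 16.6% lower. Of 15 leukocyte integrin and selectin genes 3 were higher and 5 lower, with 1 lower without KO_EV 1.

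The class II antigen presentation genes rose with their activator. Ciita, the master coactivator of MHC class II, had 3.78, 9.47 and 2.82 CPM in KO+s, against 0.203, 0.641 and 0.365 CPM in KO+EV (log2 change 3.70 ± 0.75, adjusted p = 0.00368). H2-Aa had 43.7, 96.6 and 46.4 CPM in KO+s, against 4.07, 11.3 and 6.46 CPM in KO+EV (log2 change 3.09 ± 0.51, adjusted p = 0.00158). The invariant chain Cd74 had 86.00, 180.3 and 78.4 CPM in KO+s, against 7.48, 22.5 and 12.2 CPM in KO+EV (log2 change 3.03 ± 0.59, adjusted p = 0.00352), with KO_s 2 highest in each. H2-Eb1 rose (2.93 ± 0.53). H2-DMa, which helps load peptide, fell instead (log2 change -1.04 ± 0.20, adjusted p = 0.00306). Dendritic cell markers summed to 267 to 391 CPM in KO+s and 117 to 249.8 CPM in KO+EV. Of 8 tested 2 rose, Cd209a and Clec10a, or 1 without KO_EV 2, KO_s 1 or KO_s 2, and 0 fell. The Clec10a call was lost without KO_EV 1, KO_EV 2, KO_s 1 or KO_s 2, with adjusted p up to 0.122. Bst2 and Itgax lay lower in all KO+s libraries without passing (log2 change -0.42 ± 0.17, adjusted p = 0.0723 for Bst2 and log2 change -1.16 ± 0.42, adjusted p = 0.0536 for Itgax). The part of such cells in the MHC class II genes was not tested. The list counted 5 higher and 1 lower of 11. The interferon list was mixed, at 10 higher and 3 lower of 35 (1 lower without KO_s 2). Of all genes tested 15.9% were higher and 16.6% lower. Ddx58, the RNA sensor RIG-I, had 83.3, 65.9 and 83.2 CPM in KO+s, against 28.4, 29.8 and 29.01 CPM in KO+EV (log2 change 1.41 ± 0.15, adjusted p = 1.43e-04). Gbp3, a guanylate-binding protein, had 27.1, 52.6 and 33.6 CPM in KO+s, against 145, 166 and 164 CPM in KO+EV (log2 change -2.07 ± 0.21, adjusted p = 1.17e-04).

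Cell division genes were lower in KO+s. Of 38 replication genes 26 fell and 0 rose, with a median log2 change of -0.61, and without KO_s 1 the number that fell was 17. Mcm3, a subunit of the replicative helicase, had 253, 292 and 291 CPM in KO+s, against 433, 517 and 612 CPM in KO+EV (log2 change -0.90 ± 0.16, adjusted p = 0.00185). Cdc6, which loads that helicase, had 37.4, 48.1 and 44.7 CPM in KO+s, against 78.8, 86.1 and 88.6 CPM in KO+EV (log2 change -0.96 ± 0.16, adjusted p = 0.00118). Rrm1, which makes deoxyribonucleotides, had 286, 306 and 347 CPM in KO+s, against 532, 588 and 596 CPM in KO+EV (log2 change -0.87 ± 0.14, adjusted p = 0.00128). All KO+s libraries lay below all KO+EV libraries in these 3 genes. Of 30 mitotic genes 23 fell and 0 rose (median -0.70; 17 to 21 lower with 1 library left out). Aurkb, a kinase of chromosome segregation, had 72.8, 71.5 and 64.95 CPM in KO+s, against 154, 161 and 143 CPM in KO+EV (log2 change -1.13 ± 0.16, adjusted p = 6.43e-04). The checkpoint gene Bub1b (log2 change -1.13 ± 0.17, adjusted p = 9.05e-04) and the mitotic kinase gene Plk1 (log2 change -1.06 ± 0.15, adjusted p = 7.57e-04) fell by about as much.

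The promoters of Mcm6 (chr1:128359656-128359955, minus strand) and Ccnb2 (chr9:70421505-70421804, minus strand) carry the letters known for these 2 groups. Capitals mark the E2F letters TTTNGCGC in Mcm6, where 2 of 3 matches overlap on opposite strands, and the cell cycle homology region TTTGAA in Ccnb2. E2F factors drive genes of DNA replication, and the homology region is bound in mitotic genes by the DREAM and MuvB complexes.
Mcm6: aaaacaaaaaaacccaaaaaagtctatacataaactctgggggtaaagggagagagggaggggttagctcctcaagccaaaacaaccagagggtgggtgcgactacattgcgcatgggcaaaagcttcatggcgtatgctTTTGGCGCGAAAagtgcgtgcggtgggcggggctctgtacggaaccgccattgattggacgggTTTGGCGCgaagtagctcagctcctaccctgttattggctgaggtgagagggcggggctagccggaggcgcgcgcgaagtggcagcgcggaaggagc
Ccnb2: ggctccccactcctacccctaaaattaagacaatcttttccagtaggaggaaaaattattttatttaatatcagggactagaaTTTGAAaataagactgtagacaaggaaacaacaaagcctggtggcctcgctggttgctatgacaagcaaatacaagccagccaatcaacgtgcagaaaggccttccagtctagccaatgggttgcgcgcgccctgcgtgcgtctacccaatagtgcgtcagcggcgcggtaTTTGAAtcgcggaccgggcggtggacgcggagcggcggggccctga
The E2F letters stood in 8 of 31 replication promoters (25.8%) and in 2.67% of those of tested genes (1.38% of all). TTTGAA stood in 17 of 25 mitotic promoters (68%), against 11.9% of those of tested genes and 18.1% of all. Mcm6 had 375, 479 and 488 CPM in KO+s, against 566, 622 and 723 CPM in KO+EV (log2 change -0.51 ± 0.15, adjusted p = 0.0206). The Mcm6 call was lost without KO_EV 3 or KO_s 1, with adjusted p up to 0.0840. Ccnb2, a mitotic cyclin, had 108, 86.5 and 102 CPM in KO+s, against 164, 172 and 146 CPM in KO+EV (log2 change -0.70 ± 0.15, adjusted p = 0.00465).

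Regulators of the entry into the cycle went both ways. The D-type cyclins, which answer growth signals, rose: Ccnd1 had 13.99, 75.8 and 15.4 CPM in KO+s, against 3.61, 3.20 and 4.22 CPM in KO+EV (log2 change 3.25 ± 0.68, adjusted p = 0.00485). Ccnd2 had 29.99, 78.7 and 22.7 CPM in KO+s, against 3.76, 2.56 and 8.75 CPM in KO+EV (log2 change 3.13 ± 0.71, adjusted p = 0.00718), with KO_s 2 the highest library in both. Ccnd3 also rose (log2 change 0.74 ± 0.18, adjusted p = 0.00997). Their kinase Cdk4 had 142, 208 and 162 CPM in KO+s, against 262, 282 and 371 CPM in KO+EV (log2 change -0.84 ± 0.20, adjusted p = 0.00819), Ccne1 fell (log2 change -0.66 ± 0.14, adjusted p = 0.00509) and so did E2f4 (log2 change -0.65 ± 0.11, adjusted p = 0.00187). Over the list 3 rose and 6 fell of 18, with 3 lower without KO_EV 3 or KO_s 1. Cdkn1c, the p57 inhibitor that holds HSCs out of division, had 121, 101 and 149.6 CPM in KO+s, against 15.9, 13.3 and 25.6 CPM in KO+EV (log2 change 2.76 ± 0.28, adjusted p = 1.24e-04). Cdkn1b passed narrowly (log2 change 0.72 ± 0.25, adjusted p = 0.0464). The Cdkn1b call was lost without KO_EV 2, KO_EV 3, KO_s 1, KO_s 2 or KO_s 3, with adjusted p up to 0.143. Myc had 79.4, 191 and 77.3 CPM in KO+s, against 129, 126 and 116 CPM in KO+EV (log2 change -0.10 ± 0.41, adjusted p = 0.881). The MYC antagonist Mxi1 had 262, 255 and 249 CPM in KO+s, against 132, 124 and 92.8 CPM in KO+EV (log2 change 1.14 ± 0.13, adjusted p = 2.09e-04). Replication-dependent histones showed 0 higher and 0 lower of 36 in edgeR (median 0.28), although poly-A selection recovers these RNAs poorly; with 1 library left out, up to 2 were higher and up to 1 lower.

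**Figure D4:**
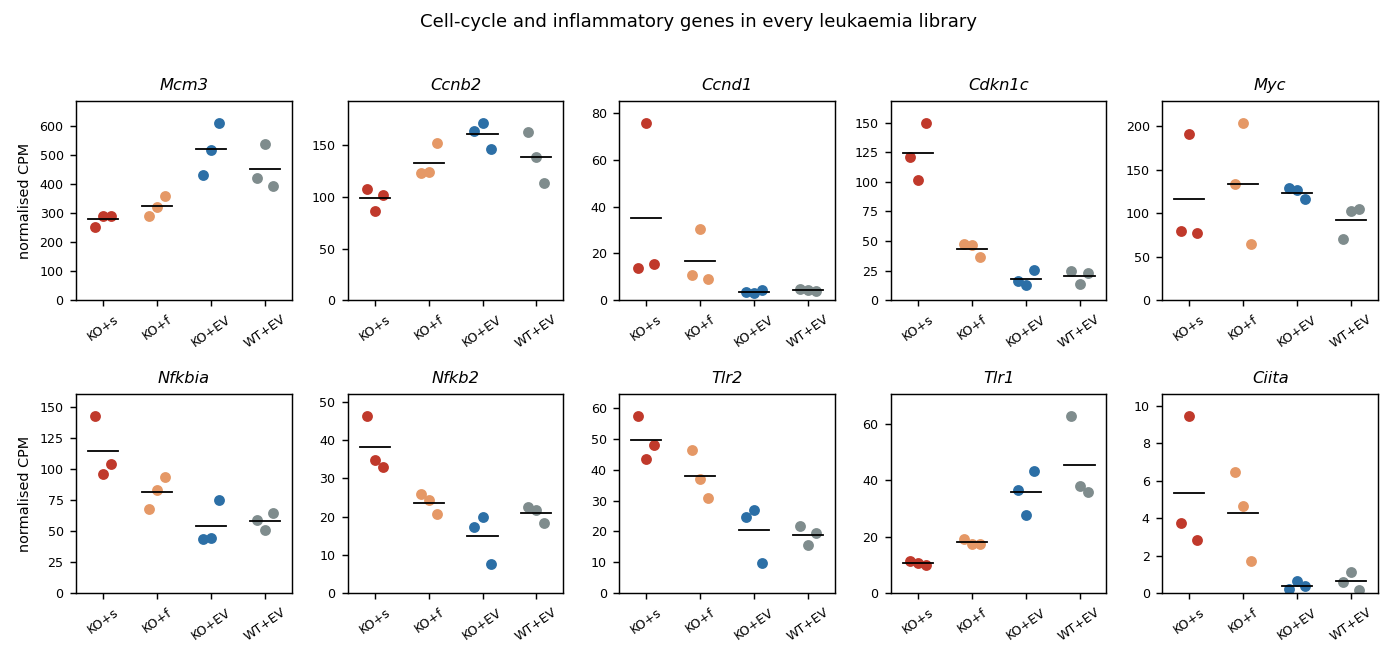
Normalised CPM of 10 cell-cycle and inflammatory genes in every leukaemia library, on linear axes from 0; points are libraries in the order of their replicate numbers and bars are group means. Mcm3 and Ccnb2 are lower in all KO+s libraries than in all KO+EV libraries, Cdkn1c and Nfkbia are higher, and Tlr2 and Tlr1 move in opposite directions.

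Genes for making proteins and for respiration fell with those of division. Among aminoacyl-tRNA synthetases and linked amino acid enzymes 18 of 26 fell, with a median of -0.61, and 1 rose, the stress factor Atf4 (log2 change 0.58 ± 0.18, adjusted p = 0.0323). The Atf4 call was lost without KO_EV 1, KO_EV 2, KO_s 1 or KO_s 3, with adjusted p up to 0.120. Shmt2, the mitochondrial serine hydroxymethyltransferase of one-carbon metabolism, had 59.2, 88.3 and 70.6 CPM in KO+s, against 212, 229 and 235 CPM in KO+EV (log2 change -1.63 ± 0.15, adjusted p = 9.26e-05). Asns, asparagine synthetase, had 13.4, 17.02 and 18.4 CPM in KO+s, against 73.1, 76.05 and 179 CPM in KO+EV (log2 change -2.75 ± 0.51, adjusted p = 0.00270). Psat1, of serine synthesis, had 44.6, 74.6 and 69.4 CPM in KO+s, against 253, 249.97 and 107 CPM in KO+EV (log2 change -1.69 ± 0.32, adjusted p = 0.00277). KO_EV 3 departed from its group in Asns, upward, and in Psat1, downward, and the groups stayed apart. Of 27 ribosome biogenesis genes 15 fell and 0 rose (median -0.48), led by Wdr12 (log2 change -1.15 ± 0.15, adjusted p = 5.03e-04). Genes of the cytosolic ribosome held few calls: 3 rose and 1 fell of 80, with a median of 0.11, and none of these calls held with each library left out in turn.

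Mitochondrial genes fell by small steps. Of 76 mitochondrial ribosomal protein genes 34 fell and 0 rose (median -0.39), with 16 lower without KO_s 1 and 22 without KO_s 2 or KO_EV 2. Mrps5 had 14.7, 18.9 and 17.5 CPM in KO+s, against 29.5, 33.1 and 38.3 CPM in KO+EV (log2 change -0.98 ± 0.15, adjusted p = 8.19e-04). In complex I 15 of 35 subunits fell and 0 rose, with 9 lower without KO_s 1 and 8 without KO_s 2. In complexes II and III it was 7 of 14, or 4 without KO_EV 2, KO_s 1 or KO_s 2. In ATP synthase it was 7 of 15, and 7 to 9 with 1 library left out. Atp5b, its catalytic subunit, had 735, 896 and 809.7 CPM in KO+s, against 1389.7, 1503 and 1693 CPM in KO+EV (log2 change -0.91 ± 0.15, adjusted p = 0.00110). Sdha, of complex II, had 236, 268 and 229 CPM in KO+s, against 415, 428 and 444 CPM in KO+EV (log2 change -0.81 ± 0.11, adjusted p = 4.17e-04). Of 17 tricarboxylic acid cycle genes 11 fell and 0 rose, or 7 without KO_EV 3 or KO_s 1, led by Fh1, fumarase (log2 change -0.97 ± 0.12, adjusted p = 3.10e-04). In cytochrome c oxidase 4 of 13 fell, and Cox7a2l, a factor that joins respiratory complexes, rose (log2 change 0.64 ± 0.16, adjusted p = 0.0112).

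**Figure D5:**
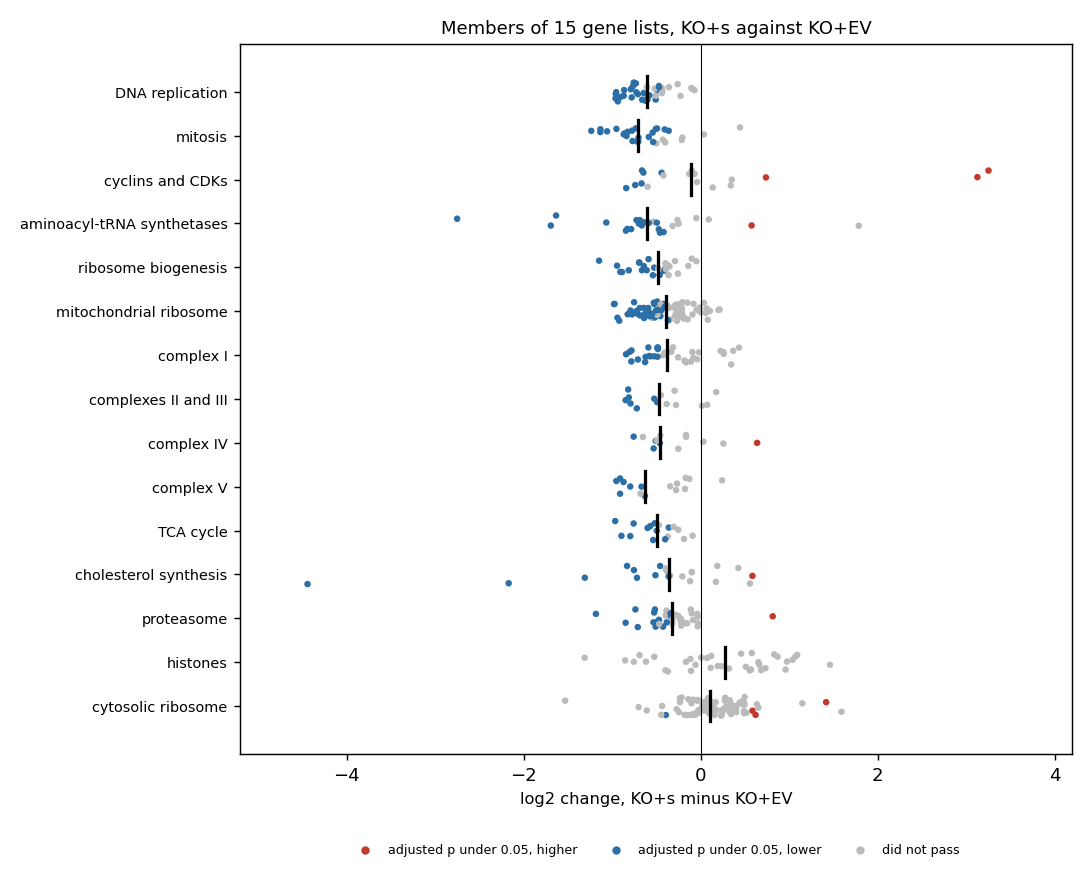
Log2 change of each tested member of 15 gene lists, KO+s minus KO+EV, with black bars at list medians; red and blue points passed the edgeR threshold and grey points did not. Medians lie between -0.70 (mitosis) and -0.32 (proteasome) for 12 lists, at -0.11 for cyclins and CDKs, and above 0 for histones and the cytosolic ribosome.

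Other metabolic lists held calls in both directions, where 15.9% of all genes tested were higher and 16.6% lower. Glycolysis gave 4 higher and 6 lower of 23 (2 and 3 without KO_EV 2 or KO_s 3). Ldhb, a lactate dehydrogenase subunit, had 46.9, 8.67 and 31.9 CPM in KO+s, against 0.254, 0.229 and 3.96 CPM in KO+EV (log2 change 4.31 ± 1.07, adjusted p = 0.0110), with KO_s 2 low and KO_EV 3 high. Without KO_EV 3 the Ldhb log2 change was 6.88. In cholesterol synthesis 9 of 21 fell, or 4 without KO_EV 2, and 1 rose, or 0 without KO_s 1. The rate-controlling Sqle had 5.91, 12.6 and 6.15 CPM in KO+s, against 19.7, 47.2 and 43.7 CPM in KO+EV (log2 change -2.17 ± 0.39, adjusted p = 0.00218). Antioxidant genes split at 4 higher and 9 lower of 25 (4 lower without KO_EV 2 or KO_s 1). Sod1, cytosolic superoxide dismutase, had 59.9, 61.96 and 62.7 CPM in KO+s, against 131, 123 and 131 CPM in KO+EV (log2 change -1.06 ± 0.12, adjusted p = 2.05e-04), while the haem-degrading Hmox1 rose (log2 change 1.30 ± 0.24, adjusted p = 0.00221). In the retinoid list Stra6 fell, as did Rbp4, the retinol carrier (log2 change -6.19 ± 1.02, adjusted p = 0.00141). Rarg, a retinoic acid receptor, had 38.4, 37.1 and 31.5 CPM in KO+s, against 7.94, 5.95 and 4.79 CPM in KO+EV (log2 change 2.52 ± 0.25, adjusted p = 1.02e-04). The retinal reductase Dhrs3 had 91.4, 74.2 and 74.1 CPM in KO+s, against 14.4, 8.33 and 15.8 CPM in KO+EV (log2 change 2.64 ± 0.24, adjusted p = 9.26e-05).

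Survival genes and regulators of chromatin changed singly. Mcl1, an anti-apoptotic relative of Bcl2, had 784, 644 and 843 CPM in KO+s, against 359.6, 337 and 289 CPM in KO+EV (log2 change 1.20 ± 0.22, adjusted p = 0.00203). The pro-apoptotic Bbc3 had 15.5, 10.7 and 17.01 CPM in KO+s, against 4.53, 3.48 and 6.56 CPM in KO+EV (log2 change 1.57 ± 0.31, adjusted p = 0.00331). Tet1, which oxidises methylcytosine, had 37.4, 28.4 and 21.3 CPM in KO+s, against 7.99, 5.08 and 4.63 CPM in KO+EV (log2 change 2.30 ± 0.40, adjusted p = 0.00184). Dnmt3a, a de novo DNA methyltransferase, had 117, 125 and 101 CPM in KO+s, against 59.8, 51.3 and 27.1 CPM in KO+EV (log2 change 1.31 ± 0.33, adjusted p = 0.0115). The maintenance methyltransferase Dnmt1 had 489.5, 500.4 and 459.5 CPM in KO+s, against 744, 815 and 844 CPM in KO+EV (log2 change -0.73 ± 0.15, adjusted p = 0.00378). Each of these groups was separate, with the DNA methyltransferases moving in opposite directions. Known partners of PRDM16 showed 1 rise and 2 falls among 23, where 15.9% of all genes tested were higher and 16.6% lower. Skil, a corepressor, rose (log2 change 1.28 ± 0.30, adjusted p = 0.00837). Ppargc1b, a coactivator of mitochondrial genes, had 0.311, 1.97 and 0.666 CPM in KO+s, against 14.1, 16.2 and 11.8 CPM in KO+EV (log2 change -3.85 ± 0.79, adjusted p = 0.00416), and Suv39h1 fell slightly (log2 change -0.44 ± 0.12, adjusted p = 0.0160). The Suv39h1 call was lost without KO_s 1 or KO_s 3, with adjusted p up to 0.0584. Genes of the brown fat programme were often too low to test, and 8 of 17 could be tested. The lipid droplet gene Plin5 rose at about 1 CPM (log2 change 3.67 ± 0.58, adjusted p = 0.00103). Ehhadh, of peroxisomal fat oxidation, had 3.91, 5.69 and 3.74 CPM in KO+s, against 20.5, 13.8 and 10.9 CPM in KO+EV (log2 change -1.76 ± 0.46, adjusted p = 0.0128). The Ehhadh call was lost without KO_s 1 or KO_s 3, with adjusted p up to 0.0556. Acot2 did not pass (log2 change 0.55 ± 0.30, adjusted p = 0.173).

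Markers of other cell types were read for the same 6 libraries. Megakaryocyte markers summed to 42.0 to 83.8 CPM in KO+s and 12.4 to 40.2 CPM in KO+EV. Of 8 tested 4 rose, led by Gp9 (log2 change 4.61 ± 0.85, adjusted p = 0.00249). Among these 4 rises the Itga2b call was lost without KO_EV 1, KO_EV 2, KO_EV 3, KO_s 1 or KO_s 3, with adjusted p up to 0.263. Vwf supplied most of the KO+s sum, and each of the 14 markers in the table had a count in at least 1 of the 6 libraries. Mast cell and basophil markers summed to 50.7 to 79.2 CPM in KO+s and 96.2 to 352 CPM in KO+EV. Hdc, which makes histamine, was most of the KO+EV sum, with 7.73, 6.33 and 9.43 CPM in KO+s, against 74.7, 75.7 and 292 CPM in KO+EV (log2 change -4.23 ± 0.74, adjusted p = 0.00212), and Cma1 and Fcer1a were at 0. Of the 5 tested Hdc fell and Gata2 rose (2 rose without KO_s 2), with a median log2 change of 0.58. Erythroid markers were 165 to 239 CPM in KO+s and 212 to 264 in KO+EV, nearly all Tfrc, which did not pass (log2 change -0.23 ± 0.24, adjusted p = 0.482). Of the 8 erythroid markers tested 3 rose and 0 fell (median log2 change 1.32): Hemgn (3.17 ± 0.51), Slc4a1 (4.05 ± 1.28) and Car1 (4.89 ± 1.17), each averaging under 3 CPM in KO+s. The Slc4a1 call was lost without KO_EV 1, KO_EV 2, KO_EV 3 or KO_s 3, with adjusted p up to 0.243. All 4 globin genes in the table were at 0. Among dendritic markers Irf8 and Tcf4 had the most counts over the 6 libraries, and Siglech, Xcr1, Zbtb46 and Batf3 were under 1 CPM in each. Stromal and endothelial markers summed to 198 to 232 CPM in KO+s and 54.6 to 193 CPM in KO+EV, mostly Pecam1. Summed B-cell markers reached at most 31.5 CPM in KO+s and 27.4 in KO+EV. Of 6 tested 2 rose, Cd22 and Cd79a, and 3 fell, among them Igll1. The Cd79a call was lost without KO_EV 1 or KO_s 3, with adjusted p up to 0.0663. The Igll1 call was lost without KO_EV 3, KO_s 1 or KO_s 3, with adjusted p up to 0.103. Summed T- and NK-cell markers reached at most 147 CPM in KO+s and 156 in KO+EV. Of 6 tested Lck fell and Klrb1c rose, a call lost without KO_s 3 (adjusted p = 0.0608). Summed eosinophil markers reached at most 6.40 CPM in KO+s and 12.3 in KO+EV, with Ear6 at 0. The part of other cells in the results was not tested.

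The short form was next compared with the full-length form. Prdm16 stood at 312, 241 and 192 CPM in KO+s and 331, 234 and 236 CPM in KO+f (log2 difference -0.10 ± 0.22, adjusted p = 0.819), so the doses of RNA overlapped. In the direct test 494 genes passed (3.81% of 12958), 266 higher in KO+s (2.05%) and 228 lower (1.76%), and DESeq2 called 1406. Scaled by total counts alone it was 220 higher and 510 lower, with the median of all genes moving to -0.14, beside -0.02 with the scaling used here. The number leans on single libraries: it was 37 without KO_s 1, 69 without KO_s 3 and 129 without KO_f 3. Only 33 genes, 20 higher and 13 lower, passed in the full fit and in each of the 6 fits with 1 library left out, and the genes named in the next sentences are among them unless stated.

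Many later granule genes were higher after the short form. Of 20 secondary and tertiary granule genes 8 were higher in KO+s and 0 lower, but the number higher was 4 without KO_f 2, 3 without KO_f 3 or KO_s 3 and 2 without KO_s 1. Of 9 S100 genes 3 were higher, or 1 without KO_f 3 or KO_s 1. Of 16 chemoattractant receptors 4 were higher, or 2 without KO_f 1 or KO_f 2, 1 without KO_f 3 or KO_s 3 and 0 without KO_s 1. S100a9 had 3493, 2155 and 5571 CPM in KO+s and 259, 415 and 342 CPM in KO+f (log2 difference 3.46 ± 0.46, adjusted p = 0.00592). Lyz2 had 1819, 1139 and 2479 CPM in KO+s and 459, 240.2 and 266 CPM in KO+f (log2 difference 2.49 ± 0.33, adjusted p = 0.00592), and Chi3l1 had 79.3, 60.9 and 76.6 CPM in KO+s and 9.34, 9.92 and 4.62 CPM in KO+f (log2 difference 3.18 ± 0.36, adjusted p = 0.00489). Csf3r had 567, 437 and 476 CPM in KO+s and 238, 158 and 171 CPM in KO+f (log2 difference 1.38 ± 0.16, adjusted p = 0.00489), and Itgam differed by 1.17 in log2. Ltf showed a like gap, 302, 103 and 285 CPM in KO+s and 10.5, 16.9 and 19.7 CPM in KO+f (log2 difference 3.87 ± 0.84, adjusted p = 0.0343), but of the 6 reduced fits it passed in the 1 without KO_s 2, with adjusted p up to 0.115 in the others. Outside these lists Fam123a (log2 difference 5.003 ± 0.59, adjusted p = 0.00489) and Ddx58 (log2 difference 1.34 ± 0.15, adjusted p = 0.00489) were higher after the short form.

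Several genes were lower in KO+s than in KO+f. Col6a3 had 0.267, 0.106 and 0.102 CPM in KO+s and 30.9, 6.86 and 95.5 CPM in KO+f (log2 difference -8.03 ± 1.08, adjusted p = 0.00647), and the junction gene Cgnl1 had 7.91, 3.46 and 10.1 CPM in KO+s and 288, 157 and 640.4 CPM in KO+f (log2 difference -5.65 ± 0.67, adjusted p = 0.00489). Rbp4 (log2 difference -7.82 ± 1.02, adjusted p = 0.00562) and Shmt2 (log2 difference -0.99 ± 0.15, adjusted p = 0.00819) were lower as well. Stra6 differed too (log2 difference -8.60 ± 1.25, adjusted p = 0.00832), though its adjusted p was 0.0548 without KO_s 1. Pbx3 had 7.64, 3.67 and 22.4 CPM in KO+s and 137, 123 and 224 CPM in KO+f (log2 difference -3.84 ± 0.69, adjusted p = 0.0179), a call lost without KO_f 3 or KO_s 1 (adjusted p up to 0.104). Several lists with calls against the empty vector held few between the forms. Of 38 replication genes 0 passed in edgeR, with 7 lower at an unadjusted p under 0.05 and 1 lower in DESeq2. Of 22 NF-kB genes 1 passed, Tnfaip2 (log2 difference 1.16 ± 0.18, adjusted p = 0.00832; 0.0543 without KO_s 1). Mef2c, at 763, 693 and 711 CPM in KO+s and 591, 579 and 371 CPM in KO+f, did not pass (log2 difference 0.49 ± 0.50, adjusted p = 0.602), which does not show that the forms act alike.

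Set against leukaemia with intact Prdm16, KO+s differed in 3072 genes (23.7%), 1533 higher (11.8%) and 1539 lower (11.9%), or 1204 and 2250 with total-count scaling. Without KO_s 1 it was 1765. Prdm16 stood at 312, 241 and 192 CPM in KO+s and 0.991, 0.723 and 0.424 CPM in WT+EV, so the add-back far exceeded the level of the intact gene. Replication genes were lower here as well, 28 of 38, and 9 of 22 HSC factors were higher. Pbx3 had 7.64, 3.67 and 22.4 CPM in KO+s and 111, 141 and 116 CPM in WT+EV (log2 difference -3.45 ± 0.68, adjusted p = 0.00538). Pbx3 thus passed against either empty-vector group, in the same direction. Of 20 secondary and tertiary granule genes 5 were higher than in WT+EV and 4 lower. Ngp had 1886, 1362 and 1882 CPM in KO+s and 952, 1344 and 4301 CPM in WT+EV (log2 difference -0.36 ± 0.47, adjusted p = 0.613), where the WT+EV libraries span the KO+s range. Of 20 EGR, NR4A, IER and KLF genes 2 were higher, with a median of 0.28.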

How the data were processed

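RNA was measured in cells sorted from moribund mice. The deposited gene count table, whose whole-number counts per gene the authors made from their reads, was used as given. Per the submitters' processing notes, bcl2fastq 2.17, TopHat and DESeq were used with build mm9; the counting tool, annotation and strand setting are not given in the sources used here. Of 23284 genes, 12958 passed edgeR's filterByExpr over the 12 leukaemia libraries (total counts 18.9 to 23.8 M in KO+s and KO+EV). TMM factors were followed by edgeR's quasi-likelihood fit with 1 term per group, and Benjamini-Hochberg adjustment over all genes tested. CPM values are TMM-scaled. On simulated data the fit recovered 15 of 50 rises of 2-fold and 13 of 50 falls to 0.5-fold. It recovered 50 of 50 rises of 4-fold and 44 of 50 falls to 0.25-fold, with 6 false calls among 12958 genes. The simulation gave each gene the same relative spread, held no outlying library and changed 50 genes at each fold. In the data 4200 genes passed against KO+EV, so these rates may not hold there. A gene that did not pass may still differ by 2-fold. The other 20 libraries of the series were not used. The software was edgeR 4.0.16, limma 3.58.1 and DESeq2 1.42.0 under R 4.3.3, with pandas 2.3.3, scipy 1.17.1, matplotlib 3.10.9 and numpy 2.4.6 under Python 3.11.15.

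Genes named are Prdm16; for KO+s against KO+EV up to 12 a direction with the largest log2 change among those passing, with the log2 of mean CPM over the 6 libraries at least 3, no overlap between groups and no predicted, clone-named or sex-linked gene; up to 5 passing members of each list by smallest p, or the 3 smallest where under 3 passed; and for KO+s against KO+f up to 8 a direction by the first rule. The members and the gene lists were chosen with earlier results of these data known. Asns, Atf4, Bst2, C3ar1, Ccnb2, Ccnd3, Cd14, Cd38, Cyba, Elane, Fos, Hoxa9, Jun, Mcm6, Meis1, Mpo, Myc, Nfkb2, Nfkbia, Ngp, Psat1, Stat5a, Stfa3, Tfrc, Tgfb1 and Tlr2 were added after their values were seen. Some genes that the rule names are not reported here. Alternatives were RLE and total-count scaling, no low-count filter, DESeq2, a fit of 2 groups alone, a replicate term and leaving out each library. Near-identical copies (H2-Q6, Csf2rb and Csf2rb2, Lyz1 and Lyz2, stefins) have uncertain counts, and with the strand setting unknown, overlapping antisense genes cannot be told apart. Promoters came from RefSeq by gene symbol, for 9200 of the genes tested.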

Additional observations from a re-analysis of the deposited data

How the results depend on the processing

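The number of genes passing moved with the processing, by the largest factor against KO+f. Against KO+EV, where 4200 genes passed, leaving out 1 library gave between 2732 (without KO_s 1) and 3821 (without KO_EV 3), with RLE scaling 4189 and with DESeq2 4739. Against KO+f, where 494 passed, DESeq2 called 1406, and leaving out 1 library gave between 37 (without KO_s 1) and 388 (without KO_s 2). Against WT+EV, where 3072 passed, it was between 1765 (without KO_s 1) and 2467 (without WT_EV 3). Each reduced fit held 1 library fewer, and the cause of the differences was not tested. Of 4200 genes, 2376 passed with each of the 6 libraries left out, and of 284 named genes that passed, 243 did. Alternative values of single genes were tallied for the 299 genes that the naming rule picked. Of these values 3386 kept their direction and their side of the threshold. A further 171 kept their direction and lost the call, 19 gained one, and 0 changed sign. The rule picked genes by large changes or small p-values in the same data, so this tally does not describe other genes. Replicate numbers are shared by the groups but nothing in the labels pairs them: deviations of KO+s and KO+EV libraries with the same number correlated at 0.0214, -0.0501 and -0.0191. A fit with the replicate number as a block called 2099 higher and 2078 lower against KO+EV, 4177 in all, 372 against KO+f and 3007 against WT+EV. Genes with few counts in a group, such as Prdm16 and Stra6, are limited by counting.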

Other observations

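Further genes of interferon signalling, the lysosome and protein turnover moved between KO+s and KO+EV. Irf9, a subunit of the interferon-activated complex, had 77.2, 66.4 and 76.6 CPM in KO+s, against 44.4, 50.4 and 39.99 CPM in KO+EV (log2 change 0.71 ± 0.14, adjusted p = 0.00367). Isg20, an exonuclease, rose (log2 change 1.72 ± 0.29, adjusted p = 0.00159). In the lysosome list 7 of 21 rose and 3 fell, where 15.9% of all genes tested were higher and 16.6% lower. Ctss, the cathepsin that trims the invariant chain of MHC class II, had 32.1, 45.7 and 33.7 CPM in KO+s, against 13.1, 8.42 and 8.07 CPM in KO+EV (log2 change 1.91 ± 0.40, adjusted p = 0.00457). Cst7, an inhibitor of cathepsins, had 4.18, 2.98 and 3.38 CPM in KO+s, against 39.9, 29.7 and 139 CPM in KO+EV (log2 change -4.30 ± 0.58, adjusted p = 6.26e-04). The groups did not overlap for either. Tfeb, a transcription factor of lysosomal genes, rose (log2 change 0.94 ± 0.17, adjusted p = 0.00184).

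Proteasome subunits fell at 14 of 37 and 1 rose (median log2 change -0.32; 9 lower without KO_s 1). Psmc1, an ATPase of the regulatory particle, had 80.1, 84.2 and 83.6 CPM in KO+s, against 145, 179 and 239 CPM in KO+EV (log2 change -1.18 ± 0.19, adjusted p = 0.00123). Chemoattractant receptors included a fall in the complement receptor gene C3ar1, at 0.133, 0.319 and 0.256 CPM in KO+s, against 0.865, 1.19 and 2.40 CPM in KO+EV (log2 change -2.64 ± 0.58, adjusted p = 0.00551). Receptor signalling genes of the JAK and STAT pathway included Pim3, a survival kinase, at 21.8, 28.5 and 25.8 CPM in KO+s, against 15.01, 11.7 and 11.5 CPM in KO+EV (log2 change 0.99 ± 0.19, adjusted p = 0.00308).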
